A study of Homo sapiens with 18 samples.

Results

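PIK3R1 knockout cells were compared with control cells of the line RPMI-8402 while both were under a gamma-secretase inhibitor. RPMI-8402 is an established human line of T-cell acute lymphoblastic leukaemia (T-ALL). The control cells (NT) carried a non-targeting guide and have the genotype label WT, and the knockout cells (KO) are labelled as PIK3R1 knockouts; no other engineered allele is labelled in either group. Each genotype had been exposed for 24 h to LY3039278, a gamma-secretase inhibitor (GSI), to the vehicle DMSO, or to CB-103, which blocks the nuclear NOTCH transcription complex. The comparison uses the 3 KO and 3 NT libraries under GSI, 6 of the 18 libraries of the series, and the 17346 of 58735 genes in the authors' table that passed a filter on low counts. The groups were taken from the labels, so no measured value chose them. The doses, whether the knockout line was a clone or a pool of cells, and whether the replicates were separate cultures are not stated in the sources used here. The p-values therefore measure the spread between these libraries, which may be technical. The labels name no second knockout or control line. Loss of PIK3R1 therefore cannot be told apart from other differences between the knockout and the control cells. A KO effect below means the difference between KO and NT libraries.

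PIK3R1 encodes the most widely used regulatory subunit of class IA phosphoinositide 3-kinase (PI3K). The regulatory subunit binds the catalytic subunit, protects it from degradation and holds it inactive until an activated receptor recruits the pair to the membrane. The lipid that PI3K makes activates AKT, which keeps FOXO transcription factors out of the nucleus and promotes growth through mTOR. NOTCH1 is a receptor that gamma-secretase cuts after ligand binding or after activating mutation. The freed intracellular part joins the DNA-binding protein RBPJ and the coactivator MAML to switch on genes such as HES1 and DTX1, and many T-ALL cells depend on it.

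The 6 libraries held 31535657 to 39714340 estimated reads each. Principal components were taken from only the genes that varied most over these 6 libraries. On the first component, with 42.0% of the variance of those genes, the libraries split by genotype. The second, with 25.4%, set replicate 1 of both genotypes apart from replicates 2 and 3. Reads from mitochondrial genes took 5.51%, 1.90% and 3.95% of the 3 NT libraries and 2.40%, 2.40% and 2.57% of the 3 KO libraries. Transcripts annotated as retaining an intron took 3.52%, 2.79% and 3.44% in NT and 2.27%, 2.40% and 2.27% in KO, so both groups differed in that share without overlap. The summed level of 11 T-lineage markers was 2385 to 2478 CPM in NT and 2430 to 2518 CPM in KO (CPM is a gene's reads per library, scaled to one common library size), so the T-lineage label holds in both groups. The B-cell markers MS4A1 and EBF1, the myeloid markers CSF1R, ELANE and S100A8, the erythroid and platelet markers HBA1, HBB, HBG1, ALAS2, PF4 and GP9, the NK-cell marker KLRF1 and the adherent-cell markers KRT19, COL3A1 and CDH5 were at 0 in all 6 libraries. Other markers of these cell types were present. Of 12 adherent-cell markers 4 were measured, with a sum of 257 to 286 CPM in NT and 244 to 272 CPM in KO. Sums of the other marker lists are given further on.

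PIK3R1 itself (chr5:68215720-68301821, hg38) was measured at 50.7, 57.1 and 53.05 CPM in NT and 27.4, 32.15 and 23.9 CPM in KO. The groups did not overlap. The transcript fell by 1.93-fold in KO (-0.95 ± 0.088 SE on the log2 scale, 3 libraries each; adjusted p = 3.94e-07 in edgeR) and was not lost. One transcript of the gene, PIK3R1-211, was at 11.7, 12.6 and 12.1 TPM (a level per transcript length, on a common scale) in NT and 6.19, 6.07 and 5.38 TPM in KO. The level of RNA does not show how much protein is made, and protein was not measured here. The knockout was as clear under DMSO (-0.97 ± 0.089, edgeR adjusted p = 4.12e-07) but not under CB-103, where PIK3R1 was at 30.9, 33.45 and 29.05 CPM in NT and 25.9, 29.9 and 27.6 CPM in KO with overlapping values (-0.16 ± 0.089, edgeR adjusted p = 0.173). The transcript PIK3R1-211 did not overlap under CB-103, at 7.07, 8.06 and 6.71 TPM in NT and 6.05, 5.72 and 5.76 TPM in KO. Its NT level was lower there than under GSI or under DMSO (9.795, 10.45 and 9.55 TPM). The gene-level value under CB-103 therefore does not by itself check the knockout label. Every comparison with CB-103 below takes its groups from the labels. Other differences between KO and NT did recur there. Chromosomes 14, 13 and 11 had median log2 fold changes of -0.33, 0.22 and -0.11 under CB-103 and -0.30, 0.22 and -0.14 under GSI. Of 46 other tested genes within 3 Mb of PIK3R1, 10 were called, a smaller share than the 33.8% over all genes tested, with log2 fold changes between -0.24 and 0.40, and the nearest tested protein-coding genes on either side, CD180 and SLC30A5, were not called (log2 fold changes of -0.19 and -0.047). These neighbours were chosen for their position.

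Between KO and NT under GSI, 5861 of the 17346 genes were called at an edgeR adjusted p under 0.05, 33.8% of all. Of these, 3255 (18.8% of genes tested) were higher and 2606 (15.0%) lower in KO. Most changes were small: the median size among called genes was 0.38 on the log2 scale, and 797 called genes, 428 higher and 369 lower, differed by 2-fold or more. The median over all genes was -0.0034. The values of both groups did not overlap in 7766 genes (44.8%), 5587 of them called, so groups without overlap are common here. These shares are the background against which every count below should be read. Each list is described by its calls and its median log2 fold change, with no test of the list as a whole. Values in brackets with ± are log2 fold changes of KO against NT, from 3 libraries per group, with an SE. The SE is the size of the log2 fold change divided by the square root of the edgeR F value. Its spread is estimated from all 18 libraries, not from the 3 of each group alone. The levels of 3 libraries are always given in the order of replicates 1, 2 and 3.

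Among the genes of PI3K itself, 3 of 10 measured members of the class I list rose and 3 fell, with a median of -0.16. The regulatory subunit gene PIK3R2 was at 73.95, 71.5 and 73.97 CPM in NT and 71.6, 62.1 and 59.4 CPM in KO, and replicate values of the groups overlapped (-0.18 ± 0.096, adjusted p = 0.151 in edgeR; 0.0122 with replicates 2 and 3 only and 0.0081 with gene values summed from the transcript estimates). The third regulatory gene of class IA, PIK3R3, fell from 76.7, 70.9 and 72.98 CPM to 59.6, 58.6 and 55.9 CPM without overlap (-0.34 ± 0.061, edgeR adjusted p = 3.41e-04). Both relatives of PIK3R1 thus had a log2 difference below 0, the second of them past the threshold.

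PIK3CD, the catalytic subunit most used by leukocytes, fell from 184, 185 and 194 CPM to 160.3, 162.5 and 159.5 CPM (-0.22 ± 0.046, edgeR adjusted p = 0.00118). PIK3CG, the catalytic subunit that works with G-protein-coupled receptors, was at 25.1, 28.25 and 26.5 CPM in NT and at 33.9, 31.8 and 30.2 CPM in KO, all above NT (0.26 ± 0.088, edgeR adjusted p = 0.0281). That call was lost when either NT replicate 1 or 3 or KO replicate 1 or 2 was left out (adjusted p up to 0.112), and with transcript sums (0.0719). The adaptor PIK3AP1, which brings PI3K to lymphocyte receptors, rose by 2.15-fold, from 4.43, 3.68 and 4.11 CPM to 9.18, 8.83 and 8.28 CPM (1.10 ± 0.12, edgeR adjusted p = 2.10e-06). PIK3R6, a regulatory partner of the PIK3CG product, rose at a low level, from 0.826, 0.675 and 0.9097 CPM to 2.06, 2.015 and 1.45 CPM. The plot of pathway genes places these levels side by side.

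**Figure D1:**
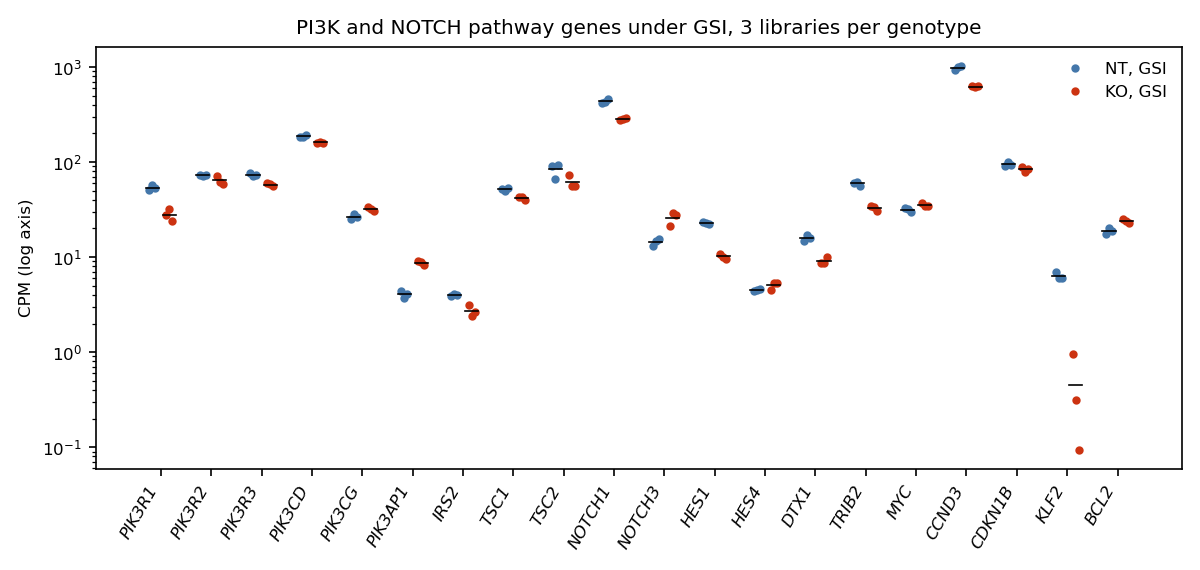
Levels of PI3K and NOTCH pathway genes under GSI. Each point is 1 library (NT blue, KO red), bars are group means, and the vertical axis is CPM on a log scale. PIK3R1, HES1, DTX1, TRIB2, NOTCH1, CCND3 and KLF2 lie lower in all 3 KO libraries, PIK3AP1 and NOTCH3 higher, and HES4 overlaps.

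Downstream of PI3K the calls were divided. Of 27 measured AKT, mTOR and lipid phosphatase genes, 5 rose and 6 fell, with a median of -0.0752. Without NT replicate 1 only 3 rose, and without NT replicate 3 only 2 fell. INPPL1, a lipid phosphatase, fell from 144, 130 and 158 CPM to 107, 103.1 and 105 CPM (-0.46 ± 0.07, edgeR adjusted p = 8.40e-05). INPP4A, which acts on the next lipid in the chain, rose from 28.9, 31.7 and 32.05 CPM to 40.7, 38.8 and 36.2 CPM.

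The partners TSC1 and TSC2 restrain mTOR. TSC1 fell from 52.4, 49.9 and 53.4 CPM to 42.5, 43.4 and 39.99 CPM (-0.31 ± 0.062, edgeR adjusted p = 0.00109); with transcript sums its adjusted p was 0.129. TSC2 was at 91.5, 66.1 and 94.1 CPM in NT and 72.6, 55.5 and 55.5 CPM in KO, so that NT replicate 2 lay inside the KO range, and its call (-0.46 ± 0.13, edgeR adjusted p = 0.0107) was lost without NT replicate 1 or 3 or without KO replicate 2 or 3 (up to 0.0852).

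Receptors and adaptors that feed PI3K changed in both directions, with 5 of 27 measured members higher and 7 lower (median -0.0336). GAB2, a docking protein for PI3K, fell from 41.3, 43.55 and 45.15 CPM to 27.25, 23.2 and 22.5 CPM (-0.83 ± 0.084, edgeR adjusted p = 1.04e-06). IRS2, which links insulin and IGF receptors to PI3K, fell from 3.93, 4.11 and 3.98 CPM to 3.16, 2.38 and 2.68 CPM (-0.55 ± 0.13, edgeR adjusted p = 0.00385). IGF1R, the receptor upstream of it, did not pass the threshold (-0.11 ± 0.084, edgeR adjusted p = 0.348). Among the rises, IL2RB, a chain of the IL-2 and IL-15 receptors, went from 3.655, 4.05 and 4.003 CPM to 9.54, 10.4 and 9.48 CPM, GRB10, an adaptor that dampens insulin receptor signalling, rose from 11.8, 13.3 and 11.4 CPM to 23.97, 25.7 and 23.9 CPM, and JAK2, a cytokine receptor kinase, rose from 2.88, 2.61 and 2.47 CPM to 4.77, 6.02 and 6.33 CPM. IL7R, whose product carries the main survival signal of early T cells, was at most 0.535 CPM in every one of the 6 libraries and was not called.

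Of 22 measured FOXO factors and targets, 9 fell and 6 rose (median -0.0562). The largest fall was that of KLF2 (chr19:16324817-16327874), a transcription factor that keeps T cells quiescent and able to migrate. KLF2 stood at 7.01, 5.98 and 5.98 CPM in NT and at 0.954, 0.312 and 0.0945 CPM in KO (-3.79 ± 0.44, edgeR adjusted p = 4.51e-06). The highest KO value was far below the lowest NT value.

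Other genes of the FOXO list went both ways. CITED2, a transcriptional coregulator, fell from 13.2, 12.9 and 10.8 CPM to 7.42, 7.89 and 7.49 CPM. BCL6, a repressor, rose from 0.901, 1.07 and 0.806 CPM to 1.67, 2.27 and 1.67 CPM, and CCR7, the receptor that leads T cells to lymph nodes, rose from 1.05, 0.613 and 0.676 CPM to 1.61, 1.59 and 1.48 CPM, all at low levels. CDKN1B, a cell-cycle inhibitor, was at 90.95, 100.5 and 93.3 CPM in NT and 87.85, 79.5 and 84.35 CPM in KO; its call (-0.18 ± 0.053, edgeR adjusted p = 0.0158) was lost without NT replicate 2 or 3 or KO replicate 2 (up to 0.192).

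In the NOTCH pathway the receptors split. Of 24 measured receptors, cofactors and gamma-secretase subunits, 6 rose and 8 fell, with a median of 0.0218. NOTCH1 (chr9:136494433-136545786) fell from 419, 426 and 458 CPM to 279, 282 and 293 CPM, by 1.53-fold with no overlap (-0.61 ± 0.057, edgeR adjusted p = 4.38e-07). NOTCH3, a receptor that is also a target of NOTCH1, rose from 13.1, 14.9 and 15.5 CPM to 21.3, 29.1 and 27.7 CPM (0.85 ± 0.17, edgeR adjusted p = 7.83e-04), and NOTCH2 rose from 12.6, 9.97 and 10.5 CPM to 19.02, 17.4 and 17.1 CPM. The ligand gene JAG1 fell from 5.56, 3.99 and 3.35 CPM to 1.49, 2.185 and 1.51 CPM.

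Of 12 measured NOTCH targets, 5 rose and 3 fell, and the median was 0.17. The 3 that fell are HES1, the repressor used most often as a readout of NOTCH activity, DTX1, a ubiquitin ligase, and TRIB2, a pseudokinase. HES1 and TRIB2 were called between genotypes under GSI but not under DMSO or CB-103, and both interactions were called, as described further on. This is not particular to them. Of all genes tested, 1606 were called under GSI alone of the treatments. Both interactions were also called in 71 of these, 54 higher and 17 lower in KO. The 250 bases before the RefSeq start sites of HES1 and TRIB2 are shown (GRCh38.p14, plus strand, 5′ to 3′). They lie at chr3:194135898-194136147 for HES1 and chr2:12716686-12716935 for TRIB2. They were searched on both strands for TGGGAA, the core of the RBPJ motif, and GTAAACA, a FOXO motif, which do not overlap each other, and matches are in capitals.
HES1: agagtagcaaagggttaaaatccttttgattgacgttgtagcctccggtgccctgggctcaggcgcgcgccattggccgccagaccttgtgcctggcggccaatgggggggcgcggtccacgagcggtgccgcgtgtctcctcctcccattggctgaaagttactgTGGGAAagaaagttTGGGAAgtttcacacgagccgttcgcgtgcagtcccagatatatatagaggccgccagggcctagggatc
TRIB2: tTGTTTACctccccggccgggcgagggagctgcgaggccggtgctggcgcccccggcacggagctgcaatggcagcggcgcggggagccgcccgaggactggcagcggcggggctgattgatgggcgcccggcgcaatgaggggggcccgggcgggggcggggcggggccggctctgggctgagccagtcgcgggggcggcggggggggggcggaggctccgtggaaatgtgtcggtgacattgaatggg
The HES1 stretch holds TGGGAA 2 times, on the strand shown, and no GTAAACA. The TRIB2 stretch holds no TGGGAA and a single GTAAACA, which reads on the opposite strand. Over 35116 promoter stretches of the same length, 20.8% hold TGGGAA, 2.9% hold it 2 or more times and 3.0% hold GTAAACA. A match in the letters is not a measured binding site.

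HES1 (chr3:194136145-194138732) stood at 23.7, 22.6 and 22.5 CPM in the NT libraries and 10.9, 10.1 and 9.45 CPM in the KO libraries. Every KO library was below every NT library, and the difference was 2.26-fold (-1.17 ± 0.094, edgeR adjusted p = 6.79e-08). TRIB2 (chr2:12716889-12742734) stood at 60.9, 62.1 and 56.4 CPM in NT and 34.1, 33.3 and 30.5 CPM in KO (-0.87 ± 0.086, edgeR adjusted p = 8.03e-07). DTX1 stood at 14.9, 17.2 and 15.96 CPM in NT and 8.615, 8.599 and 9.98 CPM in KO (-0.82 ± 0.09, edgeR adjusted p = 2.69e-06). The groups did not overlap for any of the 3 genes. The targets that rose included, beside NOTCH3, HEYL, a relative of HES1, CR2, a complement receptor, and SHQ1, a factor of small nucleolar RNA assembly, named after their values were seen. Their mean levels in NT and KO were 26.4 and 41.1 CPM for HEYL (0.64 ± 0.066), 4.32 and 6.34 CPM for CR2 (0.56 ± 0.088) and 97.4 and 113 CPM for SHQ1 (0.22 ± 0.052).

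HES4, a relative of HES1, was at 4.41, 4.48 and 4.65 CPM in NT and 4.56, 5.335 and 5.29 CPM in KO and was not called (0.17 ± 0.10, edgeR adjusted p = 0.223). MYC, the target through which NOTCH1 drives growth in T-ALL, was at 32.6, 32.4 and 29.5 CPM in NT and 37, 34.65 and 34.6 CPM in KO. All 3 KO values of MYC were above the NT values, by 0.17 ± 0.068, and the adjusted p in edgeR was 0.064; it was 0.0361 without NT replicate 2.

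CCND3, the D-type cyclin that drives G1 in developing T cells, stood at 921, 1012 and 1021 CPM in NT and 624, 612 and 632 CPM in KO (-0.66 ± 0.072, edgeR adjusted p = 2.64e-06), with no overlap. RB1, the pocket protein that cyclin D inactivates, fell from 237, 248.6 and 228 CPM to 168.5, 156 and 158 CPM in the gene table (-0.56 ± 0.062), but was higher in KO by 0.15 on the log2 scale (edgeR adjusted p = 0.0333) with gene values summed from the transcripts, so its direction is uncertain. Of 20 measured G1 genes, 7 rose and 6 fell; 4 rose without KO replicate 1. The rises included CDKN1A, an inhibitor of cyclin-dependent kinases, from 0.325, 0.675 and 0.546 CPM to 0.954, 1.45 and 1.51 CPM.

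Genes of DNA replication were more often higher in KO. Of 31 measured G1/S and replication genes, 19 rose and 3 fell (61.3% higher against 18.8% of all genes), with a median of 0.26. RFC3, a subunit of the clamp loader, rose from 50.7, 54.2 and 51.5 CPM to 79.1, 79.6 and 83.2 CPM (0.63 ± 0.044, edgeR adjusted p = 1.45e-08). SLBP, which processes histone messages in S phase, rose from 106, 113 and 103.5 CPM to 155, 142 and 145 CPM, and UNG, a DNA repair enzyme, from 102, 115 and 107 CPM to 151, 141 and 144 CPM. POLE, the catalytic subunit of a replicative polymerase, fell from 535, 423 and 545 CPM to 364, 371 and 371 CPM.

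Of 28 measured G2/M and mitosis genes, 11 rose and 1 fell, with a median of 0.12, and 7 rose without KO replicate 1. CENPF, a kinetochore protein, rose from 661, 624 and 607 CPM to 776, 776 and 769.8 CPM. The gene that fell was CENPE, a kinetochore motor, from 262, 233 and 222 CPM to 204, 179 and 184 CPM. Cell number and cell-cycle phase were not measured here.

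Genes of cytosolic ribosomal proteins had the highest share of higher calls of any list. Of 43 measured members, 34 rose and 1 fell (RPS12, named after its value was seen), with a median of 0.28. RPSA, a small-subunit protein, rose from 2013, 2198 and 1985 CPM to 2659, 2708 and 2918 CPM (0.42 ± 0.05, edgeR adjusted p = 6.97e-06), and RPL11, a large-subunit protein, from 849, 724 and 689 CPM to 1097, 982 and 1058 CPM. Leaving out 1 library at a time, the number that rose lay between 25 (without NT replicate 1) and 38 (without NT replicate 2). Many ribosomal protein genes have processed pseudogenes with nearly the same sequence, so their levels carry the uncertainty of how reads were divided.

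Of 35 measured genes of ribosome biogenesis, 19 rose and 1 fell (PPAN, named after its value was seen), with a median of 0.18. NPM1, a nucleolar chaperone, rose from 1048, 1164 and 1063 CPM to 1460, 1380 and 1367 CPM, GNL3, a nucleolar GTPase, from 128, 115 and 123 CPM to 145, 159 and 154 CPM, and POLR1C, a subunit of RNA polymerases I and III, from 20.45, 18.4 and 17.9 CPM to 26.65, 24.15 and 24.2 CPM. ODC1, the first enzyme of polyamine synthesis, rose from 159, 157 and 151 CPM to 245, 209.5 and 209.9 CPM, within a nucleotide and polyamine list of 8 higher and 3 lower of 22.

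Of 30 measured respiratory chain subunits encoded in the nucleus, 21 rose and 2 fell, with a median of 0.22. ATP5MC1, part of the ATP synthase ring, rose from 33.7, 35.6 and 34.9 CPM to 48.2, 47.1 and 50.35 CPM, and NDUFB3, a subunit of complex I, from 51.4, 49.6 and 47.9 CPM to 68.4, 67.1 and 76.5 CPM. Of 13 mitochondrially encoded genes, 4 were called, all lower in KO, with a median of -0.62. That is 30.8%, against 15.0% of all genes called lower and 33.8% called in either direction. MT-CO3, a core subunit of cytochrome oxidase, was at 7336, 2790 and 5469 CPM in NT and 2951, 3005 and 3099 CPM in KO, so NT replicate 2 lay below the KO range and the call was lost without NT replicate 1 (adjusted p = 0.0922 in edgeR). The mitochondrial count moved with single libraries. Without NT replicate 2, 12 of 13 fell; without NT replicate 1 a single one was called in edgeR, higher in KO; and without any one of the other 4 libraries 1 or 2 fell.

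The share of intron-retaining reads given above was lower in every KO library than in any NT library, while the mitochondrial share of the KO libraries lay inside the NT range. Calls also varied with the length of the gene models. Of the 4338 shortest genes tested, 720 rose and 322 fell (median 0.0167); of the 4336 longest, 679 rose and 928 fell (median -0.0472). With mitochondrially encoded genes left out before scaling, 34 ribosomal protein genes and 21 nuclear respiratory chain genes rose. The part of intron retention and length in the list counts was not tested.

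**Figure D2:**
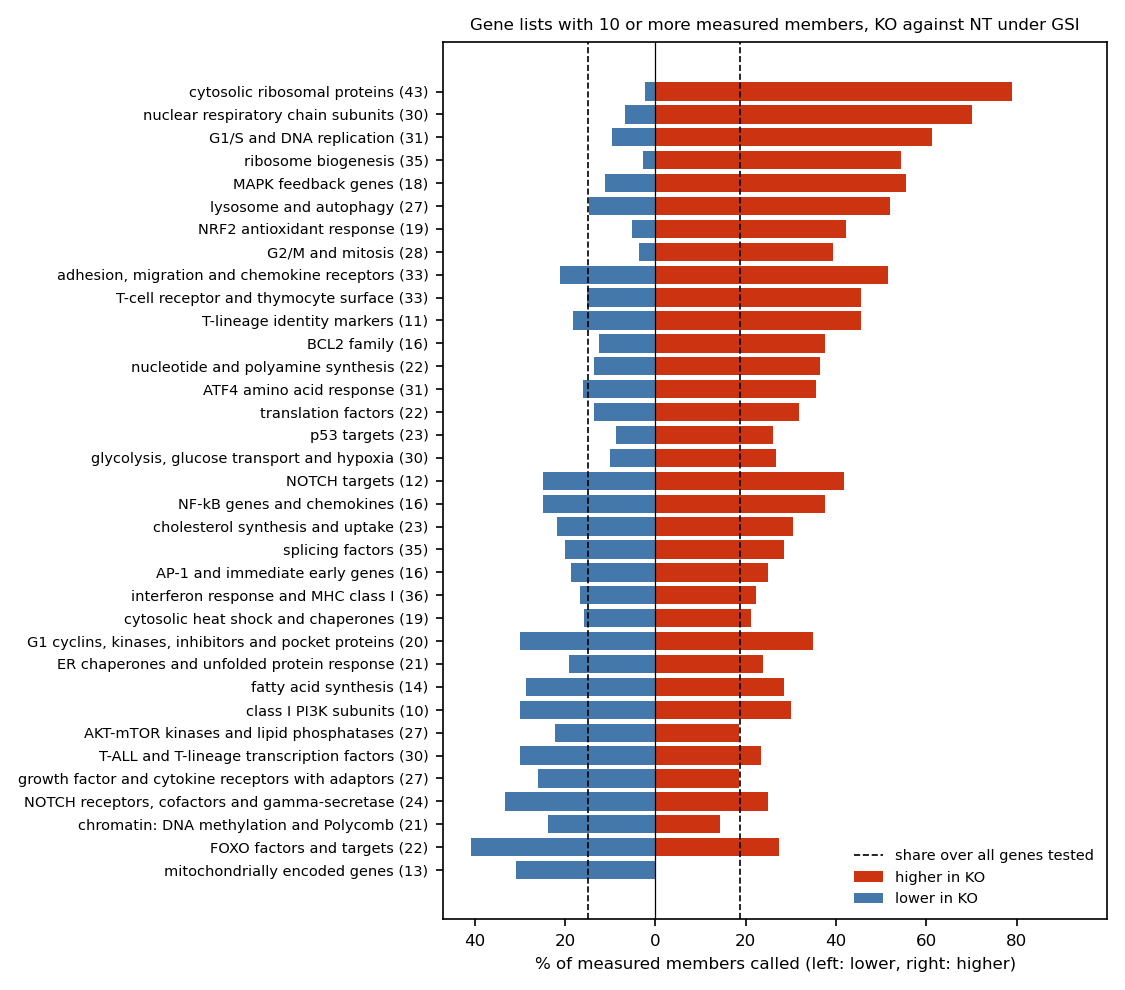
Share of the measured members of each gene list that were called higher (red, right) or lower (blue, left) in KO under GSI, for lists with 10 or more measured members (number in brackets). The dashed lines mark the shares over all genes tested, 18.8% higher and 15.0% lower; ribosomal proteins, nuclear respiratory chain subunits and replication genes extend farthest to the right.

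T-cell surface genes were more often higher than lower. Of 33 measured genes of the T-cell receptor and thymocyte surface, 15 rose and 5 fell, with a median of 0.17. CD7, an early T-lineage marker, rose from 1.68, 2.73 and 2.885 CPM to 8.94, 9.22 and 8.31 CPM (1.87 ± 0.16, edgeR adjusted p = 2.36e-07), and LAT, the adaptor below the T-cell receptor, from 31.5, 28.3 and 31.01 CPM to 55.98, 66.1 and 70.4 CPM. CD3D, a chain of the receptor complex, rose from 124.5, 128 and 121 CPM to 166, 167.5 and 175 CPM (0.45 ± 0.043, edgeR adjusted p = 6.28e-07), and CD2, an adhesion receptor, from 17.6, 15.1 and 11.7 CPM to 35.4, 25.2 and 23.5 CPM.

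TRAC, the constant part of the T-cell receptor alpha chain, rose at a low level from 0.275, 0.491 and 0.5198 CPM to 2.59, 2.92 and 2.96 CPM. RAG2, a subunit of the recombinase, was at 0.1001, 0.153 and 0.07797 CPM in NT and at 0.7155, 0.823 and 0.8501 CPM in KO. Against this direction, CD44, the hyaluronan receptor, fell by 4.92-fold, from 58.8, 71.03 and 64.3 CPM to 14.9, 13.5 and 10.99 CPM (-2.30 ± 0.12, edgeR adjusted p = 3.09e-10).

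T-ALL and T-lineage transcription factors gave 7 rises and 9 falls among 30 measured, with a median of -0.11; 5 fell without NT replicate 3. HOXA10, a homeobox gene of a T-ALL subtype, was low in NT at 0.451, 0.399 and 0.286 CPM and at 7.304, 6.13 and 5.64 CPM in KO (4.06 ± 0.21, edgeR adjusted p = 2.78e-10). ID2, an inhibitor of E proteins, rose from 0.576, 0.583 and 0.3899 CPM to 3.16, 3.12 and 3.05 CPM. IKZF2, a zinc-finger factor of the Ikaros family, was much more abundant and rose from 78.8, 87.5 and 80.9 CPM to 144, 145 and 151 CPM (0.83 ± 0.061, edgeR adjusted p = 2.46e-08).

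Of 33 measured adhesion, migration and chemokine receptor genes, 17 rose and 7 fell (median 0.22). CCR4, a receptor for skin-homing chemokines, rose from 2.08, 2.36 and 1.897 CPM to 5.96, 6.33 and 5.605 CPM, while LSP1, an actin-binding protein of leukocytes, fell from 3.555, 3.65 and 4.47 CPM to 0.954, 1.67 and 1.01 CPM and S100A10, an annexin partner, from 1.68, 2.21 and 1.25 CPM to 0.745, 0.539 and 0.661 CPM.

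Feedback genes of the MAPK pathway were mostly higher, with 10 of 18 measured members risen and 2 fallen (median 0.27). ETV5, a transcription factor induced by ERK, rose by 5.56-fold from 2.05, 2.02 and 2.55 CPM to 11.9, 12.9 and 12.15 CPM (2.48 ± 0.15, edgeR adjusted p = 1.71e-09). SPRED2, an inhibitor of RAF activation, rose from 5.18, 4.91 and 5.9 CPM to 15.9, 14.4 and 13.8 CPM, and DUSP5, an ERK phosphatase, from 0.701, 0.675 and 0.572 CPM to 2.59, 2.55 and 1.98 CPM. DUSP4, a related phosphatase, was called but was at most 0.315 CPM in any library. HBEGF, a growth factor ligand upstream of the same pathway, was among the largest falls, from 54.4, 58.4 and 52.1 CPM to 11.4, 10.7 and 9.89 CPM.

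In the BCL2 family 6 of 16 measured members rose and 2 fell. BCL2, the survival factor, rose from 17.4, 20.2 and 18.95 CPM to 25.1, 23.8 and 23.1 CPM (0.35 ± 0.088, edgeR adjusted p = 0.0055; 0.0585 with replicates 2 and 3 only). The death-promoting genes BID and PMAIP1 rose as well, BID from 31.99, 27.8 and 28.6 CPM to 53.9, 53.5 and 52.5 CPM (0.85 ± 0.075, edgeR adjusted p = 2.09e-07) and PMAIP1 from 33.95, 34.7 and 31.7 CPM to 44.4, 49.5 and 48.2 CPM. BCL2L2, another survival factor, fell from 5.23, 2.42 and 3.46 CPM to 0.924, 1.08 and 1.07 CPM. Of 23 p53 targets, 6 rose and 2 fell.

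In the NRF2 antioxidant response 8 of 19 measured members rose and 1 fell (median 0.29). TXN, thioredoxin, rose from 119, 124 and 121.5 CPM to 172, 169 and 169.9 CPM (0.49 ± 0.043, edgeR adjusted p = 2.64e-07), and GSR, glutathione reductase, from 60.7, 63.55 and 60.3 CPM to 95.6, 88.3 and 90.9 CPM. Of 27 lysosome and autophagy genes, 14 rose and 4 fell, with 8 risen without NT replicate 1 and 9 without KO replicate 3. CTSB, a lysosomal protease, rose from 43.5, 45.2 and 43.7 CPM to 74.1, 77.5 and 71.4 CPM.

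Of 30 genes of glycolysis, glucose transport and hypoxia, 8 rose and 3 fell. LDHA, lactate dehydrogenase, fell from 1411, 1455 and 1371 CPM to 1012, 919 and 900 CPM (-0.58 ± 0.088, edgeR adjusted p = 7.59e-05), while VEGFA, an angiogenic factor, rose from 8.19, 6.04 and 8.86 CPM to 19.4, 17.3 and 17.5 CPM. In the remaining lists, higher and lower calls were 11 and 5 of 31 for the ATF4 amino acid response, 7 and 3 of 22 for translation factors, 5 and 4 of 21 for ER chaperones, 4 and 3 of 19 for heat shock genes, 7 and 5 of 23 for cholesterol synthesis, 4 and 4 of 14 for fatty acid synthesis, 4 and 3 of 16 for immediate early genes, 8 and 6 of 36 for the interferon response, 3 and 5 of 21 for DNA methylation and Polycomb genes, and 10 and 7 of 35 for splicing factors. For NF-kB genes they were 6 and 4 of 16. Several of these small counts rested on 1 library. Without NT replicate 1, 1 ER chaperone fell and 4 cholesterol genes rose. Without NT replicate 2, 2 ER chaperones, 3 cholesterol genes and 3 Polycomb and methylation genes fell. Without NT replicate 3, 3 NF-kB and 2 heat shock genes rose and 3 ATF4 and 3 Polycomb and methylation genes fell. Without KO replicate 1, 2 heat shock and 2 fatty acid genes rose and 5 immediate early genes fell; without KO replicate 2, 2 fatty acid genes rose and 3 ATF4 genes fell; and without KO replicate 3, 1 translation factor fell and 4 cholesterol genes rose.

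Markers of other cell types rose in a few cases. CD79B, a B-cell receptor chain, rose from 0.501, 0.552 and 0.624 CPM to 2.355, 2.72 and 3.46 CPM. It was the only call among 5 measured B-cell markers, whose median log2 fold change was -0.017. Their summed level, with CD79B included, was 3.09 to 3.88 CPM in NT and 5.13 to 6.17 CPM in KO. NCAM1, an NK-cell and neural adhesion molecule, rose from 4.26, 3.895 and 3.795 CPM to 12.2, 11.8 and 11.02 CPM, and NKG7, a cytotoxic granule protein, from 2.75, 3.53 and 3.795 CPM to 4.53, 5.36 and 5.64 CPM. These were the only 2 calls among 4 measured NK-cell markers (median 0.32). With both included, the 4 summed to 10.03 to 10.4 CPM in NT and 18.8 to 20.3 CPM in KO. Myeloid markers summed to 7.51 to 8.47 CPM in NT and 8.41 to 11.5 CPM in KO, with ITGAM the only call, lost without NT replicate 2 or 3 or KO replicate 1 or 2 (adjusted p up to 0.0801 in edgeR). Erythroid markers summed to 11.04 to 14.7 CPM and 11.1 to 11.8 CPM, and adherent-cell markers to 257 to 286 CPM and 244 to 272 CPM, with COL1A1 the only call, lower in KO. The NKG7 call was lost without NT replicate 1 (0.0588). In bulk libraries, fewer cells of a type and less RNA per cell cannot be told apart.

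Among called genes of at least 5 CPM on average, the 12 largest falls and 12 largest rises without overlap were also called under DMSO and CB-103, all in the same direction. ZNF486, a zinc-finger gene of a family with many close copies, went from 11.04, 13.65 and 13.1 CPM to 0.358, 0.284 and 0.441 CPM (-5.12 ± 0.21, edgeR adjusted p = 3.50e-11). GPA33, a cell-surface glycoprotein, fell from 222.5, 233 and 219 CPM to 79.3, 73.2 and 73.3 CPM, and LIN28B, which blocks maturation of let-7 microRNAs, from 57.3, 62.7 and 58.3 CPM to 20.15, 18.8 and 19.5 CPM (-1.61 ± 0.061, edgeR adjusted p = 2.24e-11). ATP11A, a lipid flippase, fell from 61.7, 47.6 and 62.3 CPM to 10.6, 15.1 and 10.96 CPM, and PTPRJ, a receptor phosphatase, from 27.8, 31.04 and 29.2 CPM to 9.42, 9.79 and 10.2 CPM. All 12 of the largest falls had KO values below every NT value, as the rule that chose them required.

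FOXN4, a forkhead factor, showed the largest rise in that set, from 0.976, 0.705 and 0.754 CPM to 11.95, 12.1 and 12.3 CPM (3.89 ± 0.18, edgeR adjusted p = 8.85e-11). SEMA7A, a membrane-anchored semaphorin, rose from 4.66, 5.12 and 3.61 CPM to 34.2, 35.05 and 31.2 CPM (2.91 ± 0.13, edgeR adjusted p = 7.32e-11), and TMEM132D, a membrane protein, from 1.202, 1.165 and 1.56 CPM to 12.25, 11.7 and 11.15 CPM. CD48, a leukocyte adhesion ligand, rose from 4.33, 4.202 and 4.003 CPM to 16.04, 18.2 and 19.2 CPM, KRT1, a keratin, from 4.93, 7.33 and 7.38 CPM to 35.9, 33.6 and 40.5 CPM, and SLFN5, a Schlafen family gene, from 3.004, 2.64 and 2.91 CPM to 14.4, 14.5 and 12.9 CPM. ALOX5AP, which assists leukotriene synthesis, rose from 2.003, 1.66 and 1.79 CPM to 10.6, 9.76 and 9.82 CPM.

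**Figure D3:**
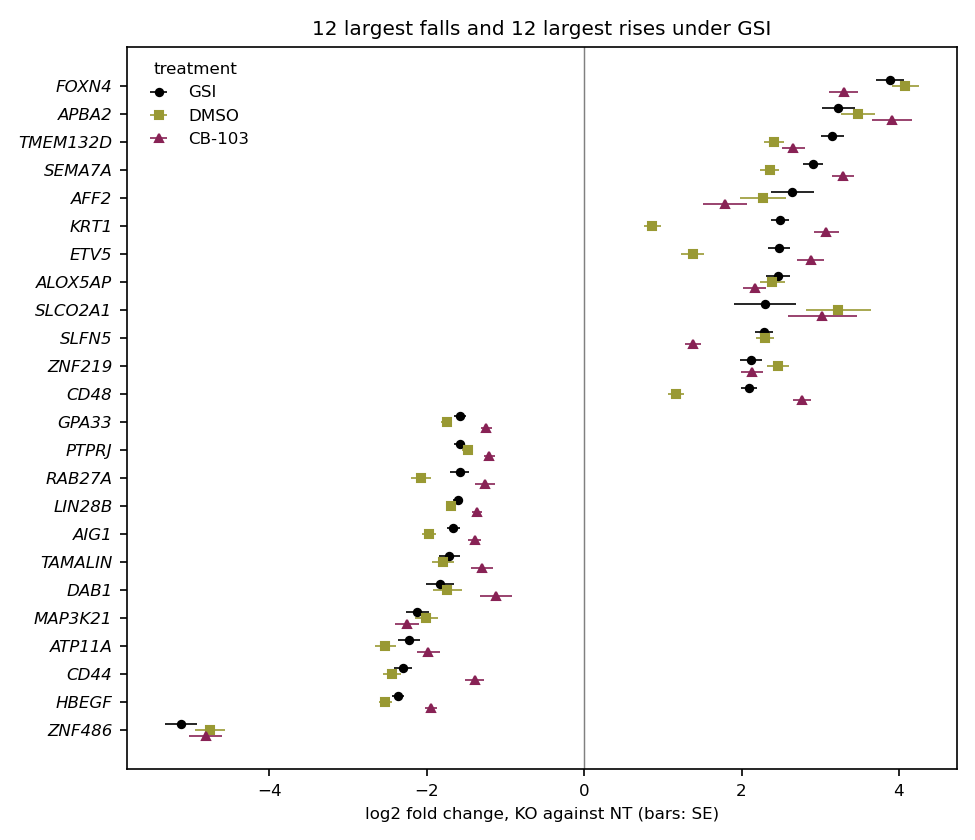
The 12 largest falls and 12 largest rises between KO and NT under GSI (black circles), with the same difference under DMSO (olive squares) and CB-103 (purple triangles). The horizontal axis is the log2 fold change and bars are its SE. In all 24 genes the symbols of the 3 treatments lie on the same side of 0, and KRT1, ETV5 and CD48 lie closer to 0 under DMSO than under GSI.

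Each treatment has its own KO and NT libraries, so the difference under GSI could be set against that under DMSO and under CB-103. Under DMSO 3720 genes (21.4%) were called, 1697 higher (9.78%) and 2023 lower (11.7%). Under CB-103 a total of 6412 genes (37.0%) were called, 3547 higher (20.4%) and 2865 lower (16.5%). Of the genes called under GSI, 2582 were also called under DMSO (44.1% of the GSI calls and 69.4% of the DMSO calls), 2554 of them in the same direction. With CB-103, 3607 were shared (61.5% and 56.3%), 3374 in the same direction. In the 3 treatments together 985 genes were higher and 869 lower throughout.

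The difference of the genotype effects was tested directly by an interaction term in edgeR. Between GSI and DMSO 484 genes passed (2.79%), 364 with a more positive KO effect under GSI (2.10%) and 120 with a more negative one (0.692%); 54 of them differed by 2-fold or more. The count ran from 53 without NT DMSO replicate 1 to 1505 without NT GSI replicate 2, and was 42 with replicates 2 and 3 only. The direction of the calls depended on the filter on low counts: with no filter 287 were more positive and 370 more negative, with 58.1% of the 484 genes kept. At 2-fold or more the numbers were 27 and 27. Between GSI and CB-103 2191 genes passed (12.6%), 969 more positive (5.59%) and 1222 more negative (7.04%), with 210 at 2-fold or more. The more positive were the majority without NT CB-103 replicate 2 or 3, NT GSI replicate 2 or 3 or any one of the KO CB-103 replicates. Without NT GSI replicate 2 they numbered 1323 against 842 more negative, and without NT CB-103 replicate 3, 1032 against 782.

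HES1 differed between genotypes mainly under GSI. Its levels under DMSO were 80.6, 88.35 and 84.2 CPM in NT and 82.3, 68.7 and 67.9 CPM in KO, which overlapped (-0.21 ± 0.082, edgeR adjusted p = 0.0788). Under CB-103 they were 17.1, 13.8 and 16.1 CPM and 14.4, 12.2 and 13.9 CPM (-0.22 ± 0.093, edgeR adjusted p = 0.0727). The KO effect under GSI was more negative than under DMSO by -0.96 ± 0.12 on the log2 scale (adjusted p = 0.00136 in edgeR) and than under CB-103 by -0.95 ± 0.13 (adjusted p = 1.68e-04). Both calls held under every alternative run.

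TRIB2 also differed between genotypes under GSI, with another order of levels by treatment. Under DMSO it was at 48.5, 48.2 and 50.1 CPM in NT and 49.45, 42.5 and 41.3 CPM in KO, and under CB-103 at 29.99, 34.6 and 26.9 CPM and 35.7, 30.7 and 32.15 CPM, in both cases with overlapping groups. Under GSI NT cells had the highest TRIB2 levels of all 6 groups, and KO cells did not share this. The interaction was -0.73 ± 0.12 against DMSO (edgeR adjusted p = 0.0118; 0.0695 with replicates 2 and 3 only) and -0.98 ± 0.12 against CB-103 (adjusted p = 6.64e-05).

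NOTCH1 and CCND3 were lower in KO under GSI and higher in KO under CB-103. NOTCH1 was lower in KO under DMSO (439, 517 and 499 CPM in NT, 387, 398 and 413 CPM in KO) and higher in KO under CB-103 (151, 157 and 145.5 CPM in NT, 186, 190.5 and 181 CPM in KO). Its interaction between GSI and CB-103 was -0.91 ± 0.081 (edgeR adjusted p = 2.95e-06). Against DMSO it was -0.33 ± 0.08 (0.0407), a call lost when any library but NT DMSO replicate 2 or NT GSI replicate 2 was left out (adjusted p up to 0.116).

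CCND3 under CB-103 was at 168, 146 and 130.4 CPM in NT and 212, 191 and 202 CPM in KO, higher in KO and far below its level under GSI or DMSO in both genotypes. The interaction between GSI and CB-103 was -1.10 ± 0.10 (edgeR adjusted p = 4.34e-06), and that against DMSO did not pass (-0.12 ± 0.10, adjusted p = 0.557). PIK3R1, PIK3CD, PIK3CG and BCL2 also had, each called in edgeR, a more negative KO effect under GSI than under CB-103, by -0.78 ± 0.12, -0.41 ± 0.065, -0.72 ± 0.13 and -0.77 ± 0.13 on the log2 scale. Of these, PIK3CD was higher in KO under CB-103 (0.19 ± 0.047, edgeR adjusted p = 0.00358), and so were PIK3CG (0.99 ± 0.096) and BCL2 (1.12 ± 0.098), while PIK3R1 was not called there, as given above. KLF2 was at 2.76, 1.85 and 2.065 CPM in NT and 0.344, 0.334 and 0.278 CPM in KO under DMSO, and at 0.4075, 0.287 and 0.554 CPM and 0.1499, 0.264 and 0.0863 CPM under CB-103, so its NT level was highest under GSI. Its KO effect differed from that under CB-103 by -2.48 ± 0.76 (edgeR adjusted p = 0.041), a call kept only without NT CB-103 replicate 3, KO CB-103 replicate 3 or KO GSI replicate 1 or 3 and lost without any of the others (up to 0.227).

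The other direction is shown by RXRA, a nuclear receptor for retinoids, and KRT1. RXRA was low in NT cells under GSI, at 0.426, 0.429 and 0.364 CPM, and stood at 5.19, 5.02 and 3.97 CPM in KO (3.53 ± 0.15, edgeR adjusted p = 5.70e-11). Under DMSO it was at 4.815, 5.585 and 4.201 CPM in NT and 13.6, 12.1 and 13.1 CPM in KO, and under CB-103 at 13.95, 13.5 and 13.6 CPM and 31.3, 29.3 and 30.5 CPM, so KO was above NT in each treatment. The KO effect was larger under GSI by 2.12 ± 0.19 than under DMSO (edgeR adjusted p = 6.19e-05) and by 2.39 ± 0.19 than under CB-103 (8.69e-07).

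KRT1 under DMSO was at 22.8, 24.5 and 24.95 CPM in NT and 41.55, 44.8 and 45.2 CPM in KO, so its NT levels were lower under GSI than under DMSO while its KO levels were closer together, and the interaction was 1.62 ± 0.16 (edgeR adjusted p = 8.14e-05). CD2 under DMSO was at 77.5, 59.3 and 57.01 CPM in NT and 67.7, 50.2 and 47.6 CPM in KO, with overlap, and had an interaction of 1.15 ± 0.28 (edgeR adjusted p = 0.0421), a call lost when any library but NT GSI replicate 2 or KO DMSO replicate 1 was left out (up to 0.114). CD3D, CD48, ETV5 and PIK3AP1 also had a more positive KO effect under GSI than under DMSO, by 0.50 ± 0.06, 0.92 ± 0.14, 1.10 ± 0.20 and 0.80 ± 0.17, the last of them lost without NT DMSO replicate 1 or 2 or KO GSI replicate 2 or 3 (up to 0.0643). IKZF2 and TSC1 went the other way, by -0.54 ± 0.087 and -0.41 ± 0.088, and the TSC1 call was lost without NT DMSO replicate 1, NT GSI replicate 1 or 3, KO DMSO replicate 2 or KO GSI replicate 3 (up to 0.0822).

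**Figure D4:**
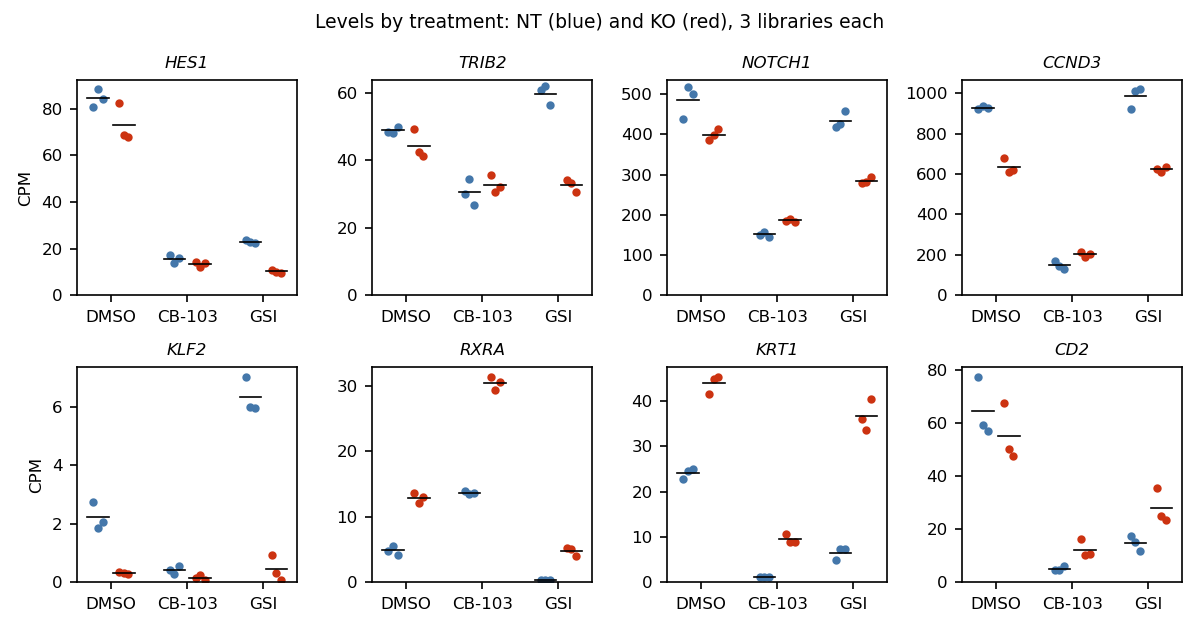
Levels of 8 genes in all 18 libraries, by treatment, with NT in blue, KO in red and bars for group means. Each vertical axis is CPM on a linear scale from 0. HES1 and TRIB2 separate by genotype under GSI, CCND3 and NOTCH1 are lower in KO under GSI and higher under CB-103, and RXRA and KRT1 are higher in KO in each treatment.

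Among the lists, both of the ribosomal ones had the highest numbers of interaction calls between GSI and DMSO, and NOTCH targets, with 4 of 12, a higher share. Those NOTCH targets went both ways, with 2 more positive and 2 more negative under GSI. Over single left-out libraries the more positive ran from 0 to 4 and the more negative stayed at 2. Under DMSO 1 of 43 ribosomal protein genes was called, lower in KO (median -0.0128), and the interaction was called in 11, all more positive under GSI. That number ranged from 0 to 30 over single left-out libraries, being 0 in edgeR without NT DMSO replicate 1, NT GSI replicate 1 or KO GSI replicate 3 and 30 without NT GSI replicate 2. In ribosome biogenesis 2 rose and 3 fell of 35 under DMSO and 4 rose and 7 fell under CB-103; the interactions were called in 8 and 12, all more positive under GSI. The 8 against DMSO ranged from 0 (without NT DMSO replicate 1 or KO GSI replicate 3) to 15 (without NT GSI replicate 2), and the 12 against CB-103 from 10 to 14. NPM1, at 1455, 1415 and 1440 CPM in NT and 1476, 1396 and 1424 CPM in KO under DMSO, had an interaction of 0.37 ± 0.079 (edgeR adjusted p = 0.0286), kept only without NT GSI replicate 2, KO DMSO replicate 1 or 3 or KO GSI replicate 1 (up to 0.0758 without the others). With mitochondrially encoded genes left out before scaling, the interaction was called in 20 ribosomal protein genes and 12 of ribosome biogenesis.

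Nuclear respiratory chain genes rose under CB-103 as under GSI (25 of 30), while under DMSO 1 rose and 3 fell. The interaction against DMSO was called in 5 of 30, all more positive under GSI, and that number ran from 0 in edgeR (without NT DMSO replicate 1 or KO GSI replicate 3) to 17 (without NT GSI replicate 2). Mitochondrially encoded genes fell in 12 of 13 cases under DMSO and under CB-103 alike. Lists with many interaction calls against CB-103 included adhesion genes, of which 25 of 33 rose under CB-103 (median 0.70) and 19 had a more negative KO effect under GSI, and ER chaperones, of which 17 of 21 fell under CB-103 and 15 had a more positive effect under GSI. CD44, in the first of these lists, fell in each treatment, more under GSI than under CB-103 (-0.91 ± 0.17, edgeR adjusted p = 0.00188). Of the 31 G1/S and replication genes, 26 rose and 1 fell under CB-103 (median 0.45), and 11 rose and 1 fell under DMSO (median 0.15). A more negative KO effect under GSI than under CB-103 was called in 16 of them, against 7.04% of all genes. That number was 11 to 15 over single left-out libraries.

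Genes of several chromosome stretches moved together in KO. On chromosome 14, 266 of 608 tested genes fell and 38 rose, a median of -0.30. On chromosome 13, 127 of 288 rose and 33 fell, a median of 0.22. On chromosome 11, 264 of 905 fell and 81 rose, a median of -0.14. Medians of the other chromosomes lay between -0.0666 and 0.0575. The same order held under DMSO (-0.36, 0.26 and -0.15) and CB-103 (-0.33, 0.22 and -0.11), in libraries separate from those under GSI.

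The stretch of 50 neighbouring tested genes with the largest median lay at chr14:60091911-67600287 (hg38), with 27 genes called, all lower, and a median of -0.46. DNA copy number was not measured here. Stretches on 2 more chromosomes shifted in all 3 treatments although their whole-chromosome medians were near 0. On chromosome 6, 27 of 50 genes at chr6:111087503-127519001 were called, all lower (median -0.37, and -0.39 under both DMSO and CB-103). On chromosome 1, 24 of 50 at chr1:206767602-214552449 were higher and 5 lower (0.38, with 0.31 under DMSO and 0.40 under CB-103). Not every shifted stretch was alike in the 3 treatments. At chr16:30530367-31477960, 16 of 50 genes were lower and 3 higher under GSI, with a median of -0.36. The median there was -0.055 under DMSO and -0.137 under CB-103.

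Several genes named above lie in such stretches, with medians of -0.48 to -0.25 or 0.29 to 0.38 in each treatment. They are CD44, PTPRJ, LDHA and RAG2 (11), ALOX5AP, RFC3 and RB1 (13), BCL2L2 (14), LIN28B and CITED2 (6) and CENPF (1). All but RAG2 and RB1 differed in the direction of their stretch, and the part of the stretch in their difference was not tested. The stretches around PIK3R1, HES1, TRIB2, NOTCH1, CCND3 and KLF2 had medians of -0.096 to 0.089 under GSI.

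**Figure D5:**
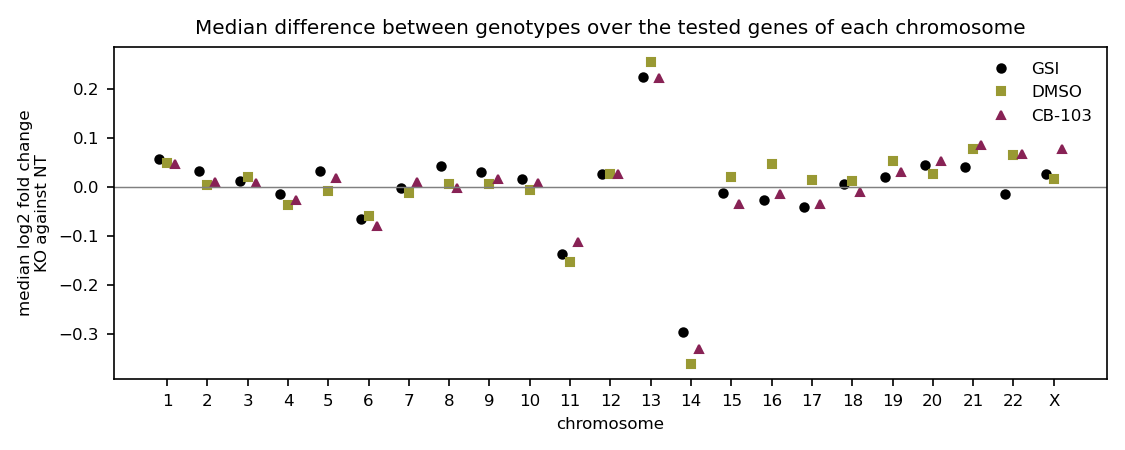
Median log2 fold change between KO and NT over the tested genes of each chromosome, under GSI (black circles), DMSO (olive squares) and CB-103 (purple triangles). Chromosome 13 lies above and chromosomes 11 and 14 below the others in all 3 treatments.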

How the data were processed

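RNA from 18 samples of RPMI-8402, in 6 groups of 3, was sequenced as stranded, poly(A)-selected libraries, per the labels' protocols. The deposited values were estimated counts per gene, which the authors had rounded to whole numbers, and estimated counts and TPM per transcript, named as in GENCODE release 29. The submitters' processing notes list Salmon 1.4.0, HISAT2 2.2.1, FastQC 0.11.9, bcl2fastq 2.20 and the build hg38; which step made the gene table is not given in the sources used here. All 206601 transcripts matched that release, and 58207 gene IDs had a symbol.

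Counts of all 18 libraries (30416183 to 43558387 reads) were fitted with 1 mean per group by edgeR 4.0.16 (R 4.3.3; quasi-likelihood test, TMM scaling, filterByExpr), with p-values adjusted by Benjamini-Hochberg over 17346 genes and called under 0.05. The common biological coefficient of variation was 0.0965. Levels are CPM on TMM-scaled library sizes. The fit was run on simulated data with 1 common spread for all genes and no replicate effect. That run cannot show how the fit handles the replicate differences in these libraries. Replicate numbers were not used to pair libraries. limma 3.58.1, DESeq2 1.42.0, other scalings and filters, transcript sums, a replicate block and left-out libraries were tried; list counts without single libraries were added after seeing the data.

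Genes were named by rule: 19 fixed PI3K, NOTCH and growth genes, the 12 largest rises and 12 largest falls of at least 5 mean CPM without overlap, the 6 largest interactions each way, and up to 4 called members per list, plus genes said to be chosen after their values were seen; 1 fixed gene is not reported here. TRIB2, PIK3AP1, TSC1, ETV5, CD48, CD3D, IKZF2, NPM1 and CD44, named by the list or size rules, have their interactions quoted because of their values. Genes and lists were chosen with earlier results of these data known.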

Additional observations from a re-analysis of the deposited data

Results flagged for a closer look

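A difference of the genotype effect between treatments, tested by an interaction term in edgeR, marked 484 genes for GSI against DMSO and 2191 for GSI against CB-103. All values below are log2 differences of the KO effect, GSI minus the other treatment, at an adjusted p under 0.05 in edgeR. Both sets of tests use the same 6 libraries under GSI.

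Against DMSO, the effect was more negative under GSI for NOTCH1 (-0.33), HES1 (-0.96), TRIB2 (-0.73), TSC1 (-0.41) and IKZF2 (-0.54). The most negative among genes of at least 5 CPM were PKD1P3 (-1.43), MIB2 (-1.27), ANKRD36B (-1.19), SMG1P1 (-1.17), STK36 (-1.13) and LINC00174 (-1.07). PKD1P3, ANKRD36B and SMG1P1 belong to multi-copy families that share reads, so their values are uncertain. These 6 calls were lost without any one of 9, 11, 9, 10, 8 and 6 of the 12 libraries, in the order named, with adjusted p up to 0.117; for all 6 this included NT DMSO replicate 1, NT GSI replicate 3, KO DMSO replicate 2 and KO GSI replicate 3. It was more positive for RXRA (2.12), ACY3 (1.75), KRT1 (1.62), LGALS12 (1.4), CD2 (1.15), TRD-AS1 (1.14), ETV5 (1.10), CD48 (0.92), PIK3AP1 (0.80), CD3D (0.50) and NPM1 (0.37). The TRD-AS1 call was kept only without NT GSI replicate 2 or 3 or KO DMSO replicate 3 (up to 0.115 without the others). ACY3, an aminoacylase, was at 1.93, 1.93 and 1.69 CPM in NT and 2.71, 1.82 and 2.17 CPM in KO under GSI, and at 21.6, 21.8 and 20.5 CPM and 7.11, 7.75 and 8.003 CPM under DMSO.

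Against CB-103, the effect was more negative under GSI for KLF2 (-2.48), CCND3 (-1.10), TRIB2 (-0.98), HES1 (-0.95), NOTCH1 (-0.91), CD44 (-0.91), PIK3R1 (-0.78), BCL2 (-0.77), PIK3CG (-0.72), CD48 (-0.68), IKZF2 (-0.60), PIK3CD (-0.41) and TSC1 (-0.31). The TSC1 call was kept only without NT CB-103 replicate 1, KO CB-103 replicate 1 or KO GSI replicate 1 or 2 (up to 0.146 without the others), and with transcript sums it was -0.079 (0.568). The most negative among genes of at least 5 CPM were TAC3 (-1.92), TERT (-1.74), CD52 (-1.60), SLCO4A1 (-1.55), XXYLT1-AS2 (-1.52) and TMSB10 (-1.47). It was more positive for RXRA (2.39), TF (2.28), IL21R (1.98), MAPRE3 (1.44), SH2D2A (1.37) and OPTN (1.28). TF, transferrin, fell to 0.13 (adjusted p = 0.742) with transcript sums, and its call was also lost without NT CB-103 replicate 2, NT GSI replicate 3 or KO GSI replicate 1 (up to 0.0858) and with limma-voom (0.0903). TERT, the catalytic subunit of telomerase, was at 11.4, 12.7 and 14.6 CPM in NT and 8.79, 9.42 and 9.54 CPM in KO under GSI, and at 1.61, 1.88 and 1.165 CPM and 4.29, 4.52 and 2.301 CPM under CB-103.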

How the results depend on the processing

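The 5861 calls under GSI ran from 4711 to 6754 over the alternatives, and 797 passed a 2-fold threshold. The 484 calls against DMSO became 1257 with the DESeq2 Wald test, 830 without mitochondrially encoded genes, 997 with transcript sums, 54 at 2-fold and 42 with replicates 2 and 3 only, and ran from 53 to 1505 over single left-out libraries. The 2191 calls against CB-103 became 210 at 2-fold. RB1 turned to 0.152 with transcript sums; the cause was not tested. With the replicate number as a block, the calls numbered 6699 under GSI, 1291 against DMSO and 2897 against CB-103. Over all 15 pairs of groups, deviations of replicate 1 from the group means correlated at 0.26 to 0.35, so replicate 1 stood apart alike. Numbers 2 and 3 are not shown to pair the libraries, with same-numbered correlations of -0.071 to 0.17. Between NT and KO under GSI the 3 values were 0.27, 0.033 and 0.15, and NT replicate 2 correlated best with KO replicate 3. Every same-numbered correlation was above 0.1 in 4 of the pairs of groups. Among them was NT under DMSO with NT under GSI (0.28, 0.13 and 0.14), which enter the interaction. KO under DMSO with KO under GSI was not (0.27, 0.12 and 0.082). Under the block PIK3R2, MYC and TERT became called and no other named gene changed its call. Of 196 named genes under GSI, 28 lost the call in at least 1 alternative, 5 gained it and 1 reversed; of 22 interactions against DMSO 16 lost it, 15 of them with replicates 2 and 3 only, and of 25 against CB-103 3 did. With 3 libraries a group, depth limits the low genes most: KLF2 in KO, DUSP4, RAG2 and IL7R rest on few reads.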
